A study of Mus musculus with 12 samples.

Results

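The genes described here are imprinted genes expressed in brain, a list of 38 that includes *Ndn*, measured in the hypothalamus of WT and *Gpr75-/-* mice. Members were taken by gene symbol, and 35 of them had a row in the results of both diets, out of 17161 genes listed on either diet. The expression of the other 3, *Peg12*, *Dio3* and *Igf2*, was not analysed here. Of the 35, 29 are annotated as protein coding and 6 as long noncoding RNA (lncRNA). By the parental allele they are known to be expressed from, the list held 21 paternally expressed genes (19 found), 11 maternally expressed genes (11 found) and 6 whose imprint depends on the isoform or the cell type (5 found).

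An imprinted gene is transcribed mainly from the allele inherited from 1 parent, the choice being set by DNA methylation laid down in the germline and kept through later cell divisions. Most imprinted genes lie in clusters that share a control region, in which paternally and maternally expressed genes are neighbors and a long noncoding RNA is often made from the allele on which the protein-coding genes are silent. Many are active in hypothalamic neurons, and loss of the paternally expressed genes around *Ndn* is the cause of Prader-Willi syndrome, in which feeding is disturbed.

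Hypothalami came from 12 male mice of 8 weeks of age in 4 groups of 3, namely WT and *Gpr75-/-* mice fed chow, and WT and *Gpr75-/-* mice given a high-fat diet (HFD) for 2 weeks from 6 weeks of age. All were C57BL/6J, and the *Gpr75-/-* mice were homozygous for a CRISPR/Cas9 frameshift allele with an early stop codon, from which *Gpr75* mRNA can still be made. In CPM, the read count of a gene scaled to a common library total, *Gpr75* mRNA was at 16.7 in WT and 24.6 in *Gpr75-/-* mice on chow, and at 19.9 and 18.4 on the HFD, so its level does not check the genotype. The question was how loss of GPR75, a brain G protein–coupled receptor, alters hypothalamic mRNA on each diet, and for these genes whether paternally and maternally expressed genes, or the *Ndn* cluster and the other members, differed.

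RNA-Seq counts do not separate the parental alleles, so each value below is the sum of both. The files give 1 value per group of 3 mice, rounded to 2 decimals on a log scale, together with the mean normalized count over the 6 mice of a diet. Single mice have no value of their own here, and the errors in the authors' own comparison were not used, so no spread between mice is given, whether groups overlap cannot be seen, and no difference below has a test or a p-value. Differences are *Gpr75-/-* minus WT on the log2 scale, and the limits beside them are those of the rounding alone, with a median half-width of 0.04 on each diet. Counting error is given as a standard error (SE) where it is large, and its median over genes was 0.05 on each diet. Mean normalized counts summed to 18280500 on chow and 19420100 on the HFD, the depth of an average mouse. Each diet was normalized by itself, so levels are not compared between diets. Each diet has its own WT mice.

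Promoters of the members are shown first, for *Ndn* and *Magel2* of the *Ndn* cluster and for *Nnat* and *Peg3*, which had large differences below. RefSeq promoter windows (250 bases before to 50 after the transcription start, 300 bases in all, build GRCm38.p6) were matched by symbol for 31 of 38 members, in 48 windows, those of *Peg12*, *Dio3* and *Igf2* included. CG dinucleotides, the sites at which methylation marks an imprint, are in capitals, and each sequence is written 5′ to 3′ on the strand of its gene.
Ndn, chr7:62348027-62348326 (+): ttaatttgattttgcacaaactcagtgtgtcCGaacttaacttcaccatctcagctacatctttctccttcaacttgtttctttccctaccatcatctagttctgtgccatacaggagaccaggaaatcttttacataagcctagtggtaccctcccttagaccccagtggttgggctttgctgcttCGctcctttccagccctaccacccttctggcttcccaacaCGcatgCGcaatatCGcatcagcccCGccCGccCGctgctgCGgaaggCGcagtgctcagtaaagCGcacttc
Magel2, chr7:62376729-62377028 (+): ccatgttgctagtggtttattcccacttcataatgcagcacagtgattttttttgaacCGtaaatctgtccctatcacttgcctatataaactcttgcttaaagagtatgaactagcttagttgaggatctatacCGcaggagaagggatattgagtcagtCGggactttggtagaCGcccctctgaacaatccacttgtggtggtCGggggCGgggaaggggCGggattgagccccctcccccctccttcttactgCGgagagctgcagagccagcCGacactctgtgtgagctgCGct
Nnat, chr2:157559828-157560127 (+): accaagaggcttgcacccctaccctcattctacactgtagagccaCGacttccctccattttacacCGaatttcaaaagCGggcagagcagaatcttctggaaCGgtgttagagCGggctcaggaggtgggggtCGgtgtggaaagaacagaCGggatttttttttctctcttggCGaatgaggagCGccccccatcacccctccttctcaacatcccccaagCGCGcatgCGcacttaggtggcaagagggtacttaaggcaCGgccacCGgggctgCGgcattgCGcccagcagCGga
Peg3, chr7:6730370-6730669 (-): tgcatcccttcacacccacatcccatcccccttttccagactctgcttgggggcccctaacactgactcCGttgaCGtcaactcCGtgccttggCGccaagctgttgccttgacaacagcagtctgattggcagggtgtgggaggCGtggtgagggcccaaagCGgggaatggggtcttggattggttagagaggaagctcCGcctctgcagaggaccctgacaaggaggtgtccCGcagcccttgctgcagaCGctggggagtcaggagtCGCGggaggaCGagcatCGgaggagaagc
The *Ndn* window holds 11 CG dinucleotides, most of them in the last part next to the start, *Magel2* holds 10, *Nnat* 17 and *Peg3* 13. Member windows had a median of 14.5, against 7 over all 32851 windows of 27025 genes. A gene with several windows, such as *Gnas*, *Igf2* or *Snrpn*, counts once for each. The set of all windows was not limited to genes expressed in the hypothalamus. The median was 12 in windows of paternally expressed genes, 11.5 in those of maternally expressed genes, 17 where the imprint depends on isoform or cell type, and 10 in the *Ndn* cluster. The windows of *Peg3* and *Usp29*, a pair transcribed in opposite directions, share 263 bases. An NRF1-type core (GCATGCGC, or GCGCATGC on the other strand) is in 3 member windows, those of *Ndn*, *Nnat* and *Commd1*, which is 6.25% of the 48 against 2.71% of all windows. A YY1-type core (AAGATGGC, or GCCATCTT) is in 1 member window, that of *Ube3a*, or 2.08% against 2.75% of all windows. These matches describe the letters in the windows and do not show binding.

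The members covered a wide range of levels. Per kilobase (kb) of exon, *Nap1l5*, an intronless gene related to nucleosome assembly proteins, stood highest in WT mice with 1019 CPM per kb on chow and 1079 on the HFD. It was followed on chow by *Nnat* (252 CPM per kb), *Snrpn* (235), *Impact* (211), the lncRNA *Meg3* (177), *Ndn* (119) and *Peg3* (101). *Mkrn3* (0.867) and *Airn* (0.516) were lowest. On the HFD *Nnat* (264), *Impact* (248), *Snrpn* (247), *Meg3* (139), *Ndn* (119), the lncRNA *Peg13* (81.0) and *Peg3* (77.1) came after *Nap1l5*, with *Mkrn3* (0.722) and *Airn* (0.442) again at the bottom. Which neighbors in this order differ beyond the spread between mice cannot be told from values per group. *Mkrn3* and *Airn* had mean normalized counts of 32.7 and 36.6 on chow and 35.2 and 35.5 on the HFD, below the minimum of 50 set for counting, and the other 33 members passed it on both diets.

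**Figure D1:**
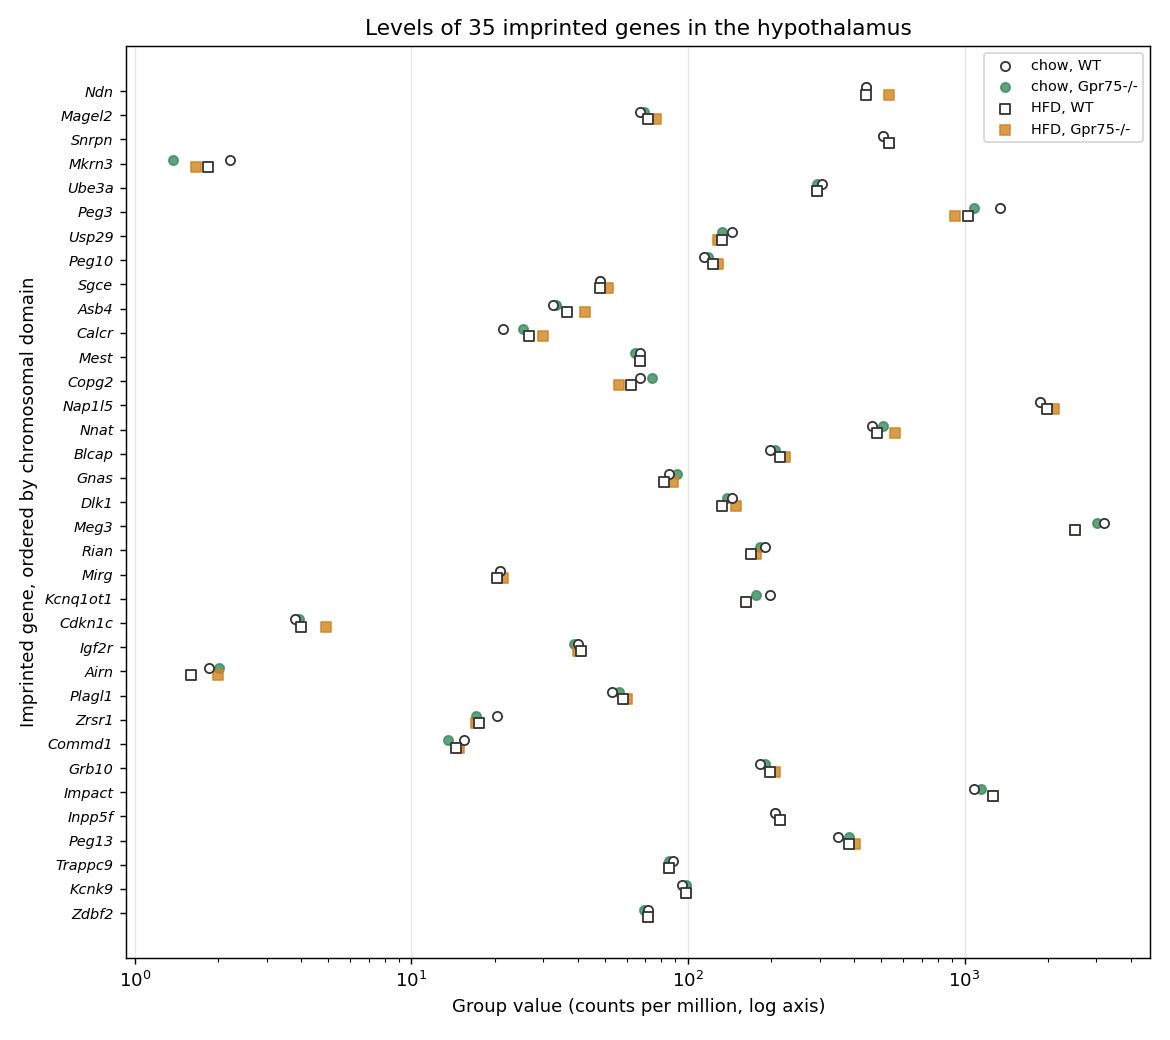
Level of each of the 35 imprinted genes in CPM (log axis) in the 4 groups; each point is the deposited value of a group of 3 mice, circles chow, squares HFD, open WT and filled *Gpr75-/-*. Levels run from 1.37 CPM for *Mkrn3* to about 3193 CPM for *Meg3*, and for most genes the open and filled symbols of a diet lie close together.

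On neither diet did an imprinted gene above the count minimum differ by 0.32 or more on the log2 scale, in either direction, between *Gpr75-/-* and WT mice. The count was 0 of 33 on chow, where 4.07% of all 14240 genes kept did, and 0 of 33 on the HFD, where 2.79% of 14326 did, so these counts lie near the background. The rounding limits of *Peg3* on chow (-0.39) and of *Ndn* (0.34) and *Cdkn1c* (0.33) on the HFD reach past 0.32, so rounding alone does not fix the counts at 0. Taking 1.1-fold, on chow 2 members were higher (12.4% of all genes) and 4 lower (12.7% of all genes), and on the HFD 6 were higher (11.8% of all genes) and 2 lower (8.99% of all genes). As shares of the 33 these are 6.06% and 12.1% on chow and 18.2% and 6.06% on the HFD. On chow the values of 14 members were higher, 6 equal and 13 lower in *Gpr75-/-* mice, with a median difference of 0.00, and over all genes kept 43.3% were higher and 40.4% lower, with a median of 0.00. On the HFD 18 members were higher, 10 equal and 5 lower, with a median of 0.05, and over all genes 46.3% were higher and 34.4% lower, with a median of 0.00. At 2 or more rounding steps apart, 7 members were higher (28.5% of all genes) and 5 lower (27.5% of all genes) on chow, and 10 were higher (30% of all genes) and 2 lower (21.6% of all genes) on the HFD. Among genes with a mean of at least 500 normalized counts, a limit chosen after seeing the data, 3 of 28 members were past 1.1-fold in either direction on chow (13.7% of all such genes) and 7 of 29 on the HFD (9.68% of all such genes).

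Cell type markers also differed between the genotypes, and in a bulk sample fewer cells of a type and less RNA per cell cannot be told apart. Of the hypothalamic neuron markers kept on the HFD, 13 of 14 were higher in *Gpr75-/-* mice and none lower, with a median difference of 0.27 and summed levels of 879 CPM in WT and 1049 CPM in *Gpr75-/-* mice. *Pomc* (20.4 and 28.2 CPM) and *Npy* (16.3 and 22.7 CPM) were among the markers higher on the HFD. Both were lower in *Gpr75-/-* mice on chow, by -0.28 and -0.08. On chow 9 of 15 were higher and 6 lower, with sums of 894 and 923 CPM. General neuron markers had a median of 0.00 on each diet, with sums of 4180 and 4046 CPM on chow and 3912 and 3854 CPM on the HFD. All 8 oligodendrocyte markers were lower on each diet, with sums of 11498 and 9805 CPM on chow and 12082 and 10346 CPM on the HFD. Their part in the values of the imprinted genes was not tested.

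**Figure D2:**
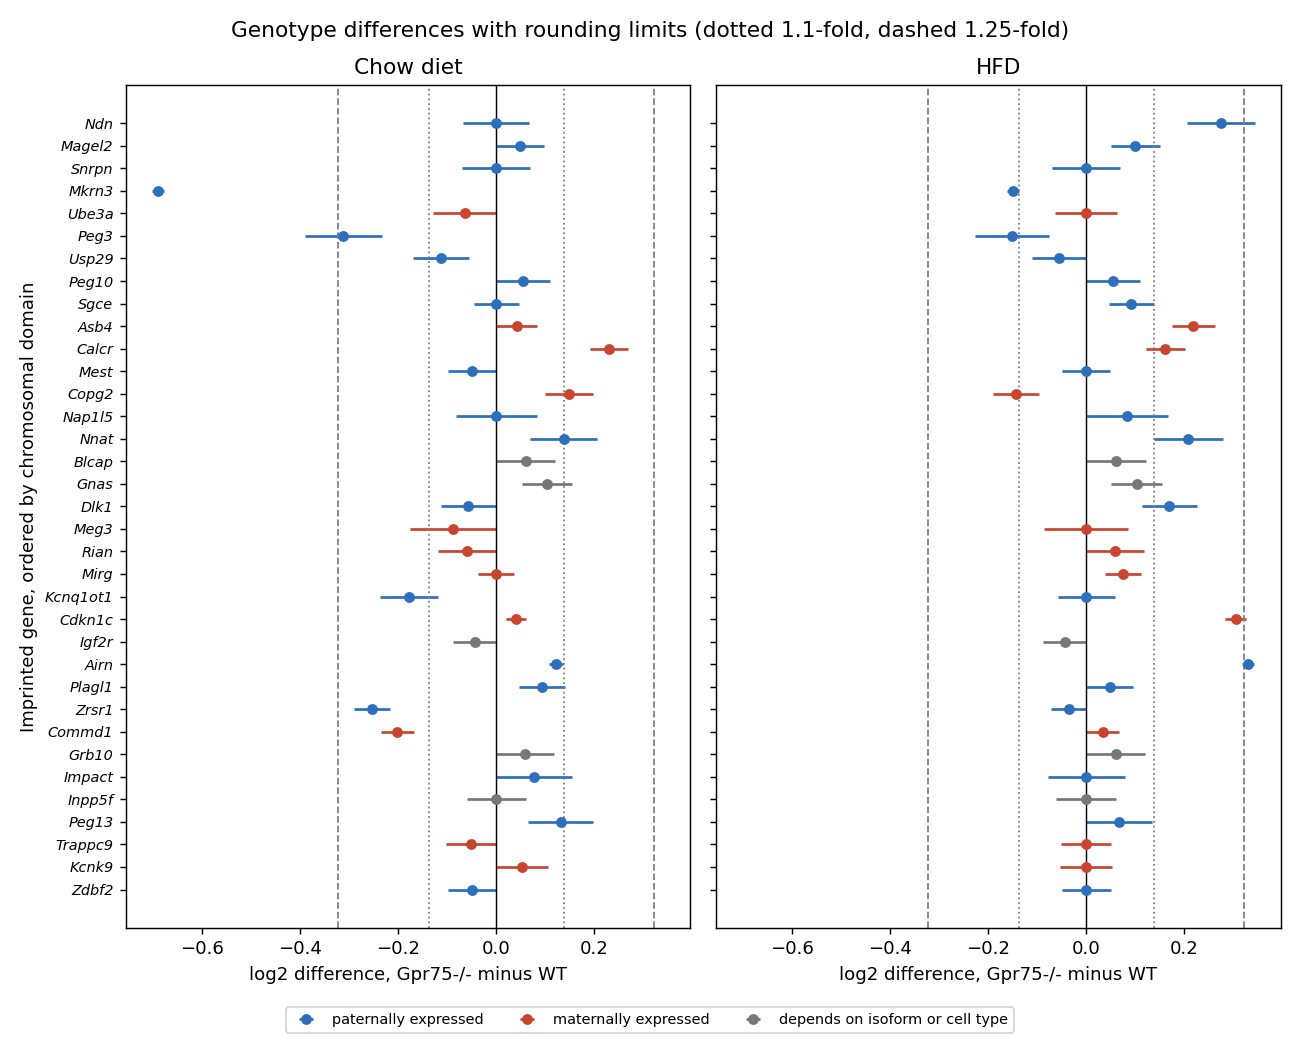
Difference between *Gpr75-/-* and WT mice (log2) for each imprinted gene on chow (left) and the HFD (right), colored by the expressed parental allele; bars are the limits of rounding, not an error between mice, and dotted and dashed lines mark differences of 0.14 (1.1-fold) and 0.32. *Peg3*, *Zrsr1* and *Commd1* lie to the left on chow, while *Cdkn1c*, *Ndn*, *Asb4* and *Nnat* lie to the right on the HFD; *Mkrn3* and *Airn* are below the count minimum.

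The *Ndn* cluster on chromosome 7 holds, over 3.19 Mb (58878498 to 62069887, GRCm39), the paternally expressed *Snrpn*, *Ndn*, *Magel2* and *Mkrn3* and the maternally expressed *Ube3a*. *Ndn* (ENSMUSG00000033585, 61996317 to 62000010) encodes necdin, a MAGE family protein of postmitotic neurons. It was at 439.9 CPM in both genotypes on chow, and at 439.9 CPM in WT and 532 CPM in *Gpr75-/-* mice on the HFD. The HFD values were thus apart, at 1.21-fold, and the chow values equal. The difference was 0.27 on the HFD (0.21 to 0.34), where 95.6% of genes had a smaller one in absolute size, and 0.00 on chow (-0.07 to 0.07). *Magel2* (62026758 to 62031388), which encodes a MAGE protein that acts with a ubiquitin ligase in endosomal recycling, was at 66.8 and 69.1 CPM in WT and *Gpr75-/-* mice on chow, and at 71.5 and 76.6 CPM on the HFD. It was slightly higher in *Gpr75-/-* mice on each diet, by 0.05 (0.00 to 0.10) and 0.10 (0.05 to 0.15).

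*Snrpn* (59632243 to 59789967), for the splicing protein SmN, was the same in both genotypes, at 507 CPM on chow and 532 CPM on the HFD, with limits of -0.07 to 0.07 on each diet. *Ube3a* (58878498 to 58961284), a ubiquitin ligase gene expressed from the maternal allele in neurons and lost in Angelman syndrome, was at 305 CPM in WT and 292 CPM in *Gpr75-/-* mice on chow (-0.06, -0.13 to 0.00) and at 292 CPM in both on the HFD. Its interval overlaps 6 other listed genes, among them *Snhg14*, which includes its antisense transcript. *Mkrn3* (62067341 to 62069887), for a zinc finger protein that holds back the onset of puberty, was at 2.21 CPM in WT and 1.37 CPM in *Gpr75-/-* mice on chow, and at 1.84 and 1.66 CPM on the HFD. These values are close to the lowest that the scale records, and the differences of -0.69 and -0.15 have counting SEs of 0.21 and 0.20 before any spread between mice. On the HFD the difference of 0.27 for *Ndn* thus stood beside 0.10 for *Magel2*, 0.00 for *Snrpn* and -0.15 for *Mkrn3*, with no test between them.

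Farther up chromosome 7, *Peg3* (6706891 to 6733430) was the member with the largest difference on chow among those kept. It encodes a zinc finger protein known for its part in maternal behavior. Its level was 1344 CPM in WT and 1083 CPM in *Gpr75-/-* mice on chow and 1027 and 925 CPM on the HFD, lower in *Gpr75-/-* mice on each diet. The difference was -0.31 on chow (-0.39 to -0.23, 0.806-fold) and -0.15 on the HFD (-0.23 to -0.08, 0.900-fold). *Usp29*, which begins beside it and shares the promoter region shown above, encodes a ubiquitin-specific protease. It was at 144 and 133 CPM on chow and 133 and 128 CPM on the HFD, lower as well, by -0.11 (-0.17 to -0.06) and -0.06 (-0.11 to 0.00). Its interval overlaps 5 predicted genes.

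On chromosome 6, the *Peg10* domain holds the paternally expressed *Peg10*, derived from a retrotransposon, and *Sgce*, for epsilon-sarcoglycan, together with the maternally expressed *Calcr* and *Asb4*. *Calcr* (3685680 to 3764714), the receptor for calcitonin and a component of amylin receptors, was at 21.5 CPM in WT and 25.2 CPM in *Gpr75-/-* mice on chow and at 26.6 and 29.8 CPM on the HFD. It was higher in *Gpr75-/-* mice on each diet, by 0.23 (0.19 to 0.27, 1.17-fold) and 0.16 (0.12 to 0.20, 1.12-fold). *Asb4* (5383386 to 5433022), for an ankyrin repeat and SOCS box protein of hypothalamic neurons, was at 32.5 and 33.4 CPM on chow and at 36.5 and 42.5 CPM on the HFD. Its values were apart on the HFD, by 0.22 (0.17 to 0.26, 1.16-fold), and near each other on chow, by 0.04 (0.00 to 0.08). *Peg10* differed by 0.05 on chow and 0.06 on the HFD, a single rounding step each. *Sgce* was at 48.1 CPM in both genotypes on chow and at 48.1 and 51.3 CPM on the HFD.

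*Mest* and *Copg2*, farther along chromosome 6, have overlapping 3′ ends, and the strand setting of the counting is not given in the sources used here, so reads in the overlap cannot be assigned with certainty. *Copg2* (30747553 to 30873729), a coatomer subunit gene, was at 66.8 CPM in WT and 74.0 CPM in *Gpr75-/-* mice on chow and at 62.4 and 56.5 CPM on the HFD. It was the sole member above the minimum whose value was higher in *Gpr75-/-* mice on chow, by 0.15 (0.10 to 0.20, 1.11-fold), and lower on the HFD, by -0.14 (-0.19 to -0.10, 0.905-fold). *Mest*, a hydrolase gene, was at 66.8 and 64.6 CPM on chow and at 66.8 CPM in both genotypes on the HFD. *Nap1l5*, which lies within *Herc3*, was at 1879.6 CPM in both genotypes on chow and at 1990.3 and 2108 CPM on the HFD (0.08, 0.00 to 0.17).

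On chromosome 2, *Nnat* (157401998 to 157404442) lies inside *Blcap*. *Nnat* encodes neuronatin, a small membrane protein of the endoplasmic reticulum, and was at 461 CPM in WT and 507 CPM in *Gpr75-/-* mice on chow and at 484 and 559 CPM on the HFD. It was higher in *Gpr75-/-* mice on each diet, by 0.14 (0.07 to 0.21), just short of 1.1-fold, and by 0.21 (0.14 to 0.28, 1.16-fold). *Blcap*, whose imprint differs between transcripts, differed by 0.06 on each diet. *Gnas*, which encodes the stimulatory G protein alpha subunit among other products, was at 85.2 and 91.5 CPM on chow and at 82.2 and 88.3 CPM on the HFD. Its differences were 0.10 on each diet, with limits of 0.05 to 0.16 and 0.05 to 0.15.

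The *Dlk1*-*Meg3* domain of chromosome 12 joins *Dlk1*, a paternally expressed gene for a membrane protein related to Notch ligands, to the maternally expressed lncRNA genes *Meg3*, *Rian* and *Mirg*, which host small RNAs. *Dlk1* (109418749 to 109429262) was at 144 CPM in WT and 138 CPM in *Gpr75-/-* mice on chow and at 133 and 150 CPM on the HFD. The chow value was lower by a single rounding step (-0.06, -0.11 to 0.00), and the HFD value was higher by 0.17 (0.11 to 0.23, 1.12-fold). *Meg3* was at 3193 and 3005 CPM on chow (-0.09, -0.17 to 0.00) and at 2513 CPM in both genotypes on the HFD. *Rian* differed by -0.06 and 0.06, and *Mirg* by 0.00 and 0.07. Of the 4 genes of the domain, *Dlk1* alone was past 1.1-fold on the HFD, and none was on chow. Over all genes kept, 11.8% were higher and 8.99% lower past 1.1-fold on the HFD, and 12.4% and 12.7% on chow.

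At the distal end of chromosome 7, *Kcnq1ot1* (142757195 to 142850286), a paternally expressed lncRNA that silences its neighbors in cis, was at 199 CPM in WT and 176 CPM in *Gpr75-/-* mice on chow and at 162 CPM in both on the HFD. The difference was -0.18 on chow (-0.24 to -0.12, 0.884-fold). *Cdkn1c* (143012076 to 143014787), a maternally expressed neighbor that encodes the cell cycle inhibitor p57, was at 3.81 and 3.92 CPM on chow and at 3.97 and 4.91 CPM on the HFD. Its difference of 0.30 on the HFD (0.28 to 0.33, 1.24-fold) was the largest of the 33 members on that diet. It rests on a mean of 88.5 normalized counts, which gives a counting SE of 0.13, against 0.01 for *Ndn*. On chow *Cdkn1c* differed by 0.04 with a counting SE of 0.14.

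On chromosome 11, *Zrsr1* (22922005 to 22926496), a splicing factor gene that arose by retrotransposition, sits within *Commd1* (22846136 to 22932382), whose product acts in copper homeostasis. Both were lower in *Gpr75-/-* mice on chow and near WT on the HFD. *Zrsr1* was at 20.4 and 17.1 CPM on chow (-0.25, -0.29 to -0.22, counting SE 0.06) and at 17.6 and 17.1 CPM on the HFD (-0.04). *Commd1* was at 15.5 and 13.5 CPM on chow (-0.20, -0.24 to -0.17, counting SE 0.07) and at 14.5 and 14.8 CPM on the HFD (0.03). *Zrsr1* is paternally and *Commd1* maternally expressed, and because they overlap, reads of the pair may be mixed. *Grb10*, for an adaptor protein of the insulin receptor, differed by 0.06 on each diet.

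The remaining members stayed within 1.1-fold on each diet, apart from *Airn*. *Peg13*, a paternally expressed lncRNA inside *Trappc9*, was at 349 CPM in WT and 383 CPM in *Gpr75-/-* mice on chow (0.13, 0.07 to 0.20) and at 383 and 401 CPM on the HFD (0.07, 0.00 to 0.13). Its maternally expressed neighbors *Trappc9*, for a trafficking complex subunit, and *Kcnk9*, for a potassium channel, differed by -0.05 and 0.05 on chow and were equal on the HFD. *Plagl1*, a zinc finger gene, differed by 0.09 and 0.05 on chow and the HFD, *Impact*, for a regulator of the kinase GCN2, by 0.08 and 0.00, and *Zdbf2* by -0.05 and 0.00. *Inpp5f*, for a phosphoinositide phosphatase, had equal values on each diet, and *Igf2r*, the receptor that clears IGF2, differed by -0.04 on each. *Airn*, the lncRNA antisense to *Igf2r*, was at 1.86 and 2.02 CPM on chow and at 1.59 and 2.00 CPM on the HFD, with a counting SE of 0.20 beside its HFD difference of 0.33. In all, 14 of the 35 members overlap another listed gene and 21, *Ndn* and *Peg3* included, overlap none.

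Paternally and maternally expressed genes were then set side by side. Over all genes kept, 43.3% were higher and 40.4% lower on chow, and 46.3% and 34.4% on the HFD. On chow, 6 of 17 paternally expressed genes were higher in *Gpr75-/-* mice, 4 equal and 7 lower, with a median difference of 0.00, and of 11 maternally expressed genes 5 were higher, 1 equal and 5 lower, also with a median of 0.00. Past 1.1-fold there were 0 higher and 3 lower paternally expressed genes (*Peg3*, *Zrsr1* and *Kcnq1ot1*) and 2 higher and 1 lower maternally expressed genes (*Calcr* and *Copg2*, and *Commd1*), where 12.4% of all genes were higher and 12.7% lower. On the HFD, 9 of 17 paternally expressed genes were higher, 5 equal and 3 lower, with a median of 0.05, against 6 higher, 4 equal and 1 lower of 11 maternally expressed genes, with a median of 0.03. Past 1.1-fold, 3 of the former were higher (*Ndn*, *Nnat* and *Dlk1*) and 1 lower (*Peg3*), and 3 of the latter were higher (*Cdkn1c*, *Asb4* and *Calcr*) and 1 lower (*Copg2*), where 11.8% of all genes were higher and 8.99% lower. With a minimum of 500 normalized counts the paternal and maternal medians were 0.00 and -0.05 on chow and 0.05 and 0.00 on the HFD. The 5 genes whose imprint depends on isoform or cell type had a median of 0.06 on each diet, with 3 higher, 1 equal and 1 lower.

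The 4 genes of the *Ndn* cluster above the minimum and the 29 other members had medians of 0.00 and 0.00 on chow and of 0.05 and 0.05 on the HFD. The means on the HFD were 0.09 and 0.05, and without the count minimum, which adds *Mkrn3* and *Airn*, the medians there were 0.00 and 0.05. On chow 1 of the 4 was higher, 2 were equal and 1 was lower, and none passed 1.1-fold, while of the 29 others 13 were higher, 4 equal and 12 lower, with 2 higher and 4 lower past 1.1-fold. On the HFD 2 of the 4 were higher and 2 equal, with *Ndn* alone past 1.1-fold, and of the 29 others 16 were higher, 8 equal and 5 lower, with 5 higher and 2 lower past 1.1-fold. Over all genes, 12.4% were higher and 12.7% lower past 1.1-fold on chow, and 11.8% and 8.99% on the HFD. Without a fold limit, 43.3% of all genes were higher and 40.4% lower on chow, and 46.3% and 34.4% on the HFD. The summed level of the cluster was 1321 CPM in WT and 1310 CPM in *Gpr75-/-* mice on chow and 1338 and 1435 CPM on the HFD.

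**Figure D3:**
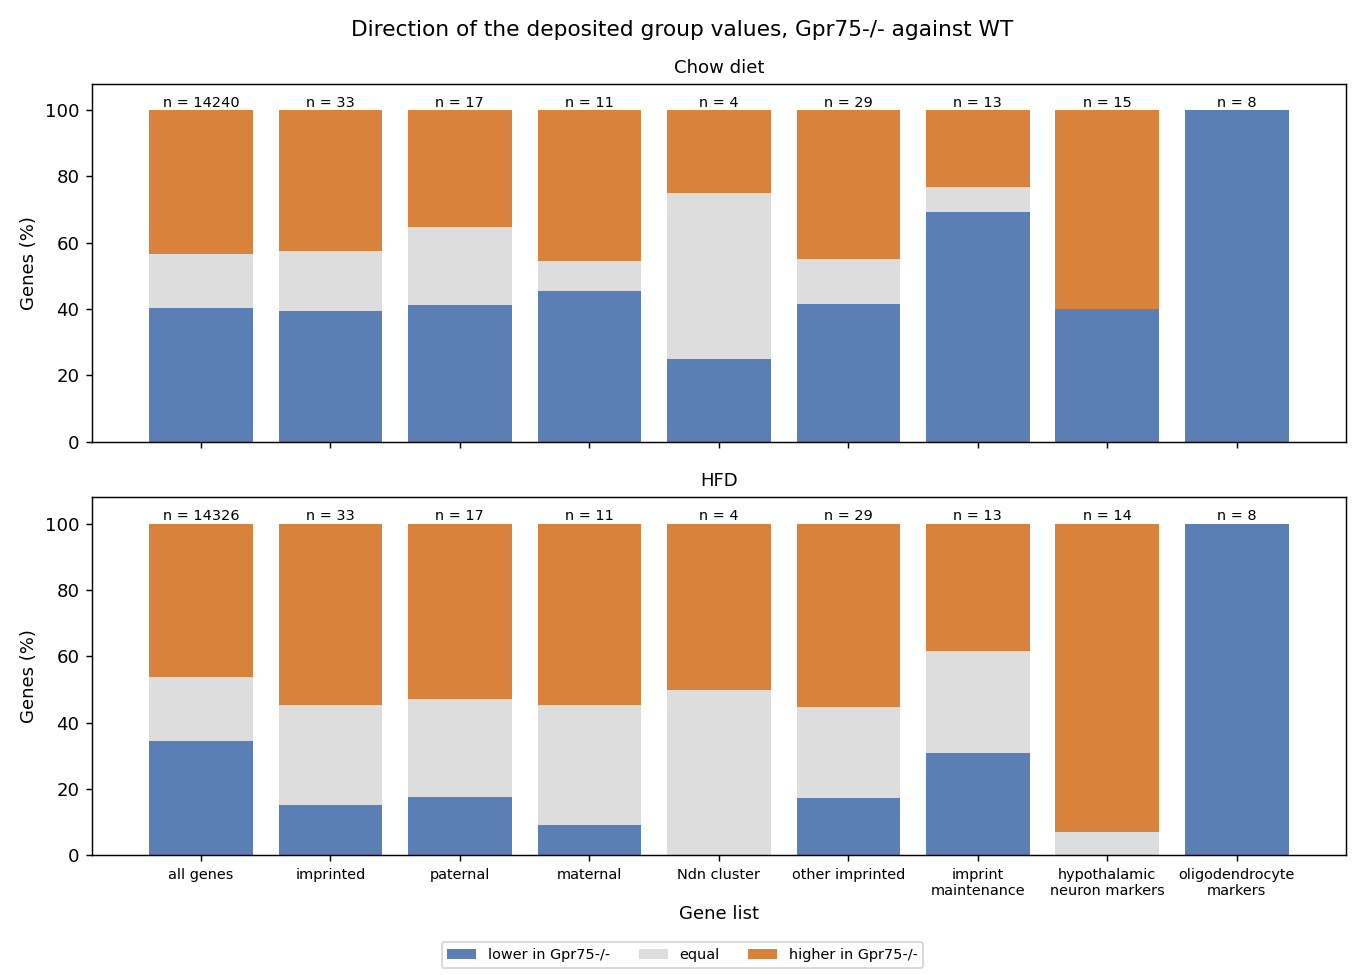
Share of genes (%) whose deposited value was lower (blue), equal (gray) or higher (orange) in *Gpr75-/-* than in WT mice, for all genes kept and for each gene list, on chow (top) and the HFD (bottom), with the number of genes over each bar. Of the imprinted genes 42.4% were higher, 18.2% equal and 39.4% lower on chow, and 54.5% higher, 30.3% equal and 15.2% lower on the HFD, with no test of these shares against those of all genes; 13 of 14 hypothalamic neuron markers were higher on the HFD and all 8 oligodendrocyte markers lower on each diet.

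Setting the diets side by side, 11 of the 33 members were higher in *Gpr75-/-* mice on both (22.1% of the 14112 genes kept on both diets), 4 were lower on both (16.7% of those genes) and 2 were equal on both. The value was higher on chow and lower on the HFD for 1, *Copg2*, lower on chow and higher on the HFD for 3 (*Dlk1*, *Rian* and *Commd1*), and equal on 1 of the diets for 12. *Peg3* (lower) and *Calcr* (higher) were the 2 members past 1.1-fold in the same direction on both, as were 5.26% of those genes. The HFD difference exceeded the chow difference by more than rounding allows for 9 members (28.1% of those genes) and fell short of it for 1 (22.6% of those genes), *Copg2*, by -0.29 (-0.39 to -0.19). The 9 were *Ndn* at 0.27 (0.14 to 0.41), *Cdkn1c* at 0.26 (0.22 to 0.31), *Commd1* at 0.24, *Dlk1* at 0.23 (0.11 to 0.34), *Zrsr1* at 0.22, *Kcnq1ot1* and *Asb4* at 0.18, *Peg3* at 0.16 (0.01 to 0.31) and *Sgce* at 0.09 (0.00 to 0.18). These limits leave out counting error. The counting SE of the difference on chow and on the HFD was 0.14 and 0.13 for *Cdkn1c*. It was 0.07 on each diet for *Commd1*, 0.06 for *Zrsr1* and 0.01 for *Ndn*. *Peg3*, *Commd1*, *Zrsr1* and *Kcnq1ot1* had the larger of their differences on chow, where they were lower in *Gpr75-/-* mice, and *Ndn*, *Cdkn1c*, *Dlk1*, *Asb4* and *Sgce* on the HFD, where they were higher. Whether the genotype difference depended on the diet was not tested, since the errors between mice were not used.

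**Figure D4:**
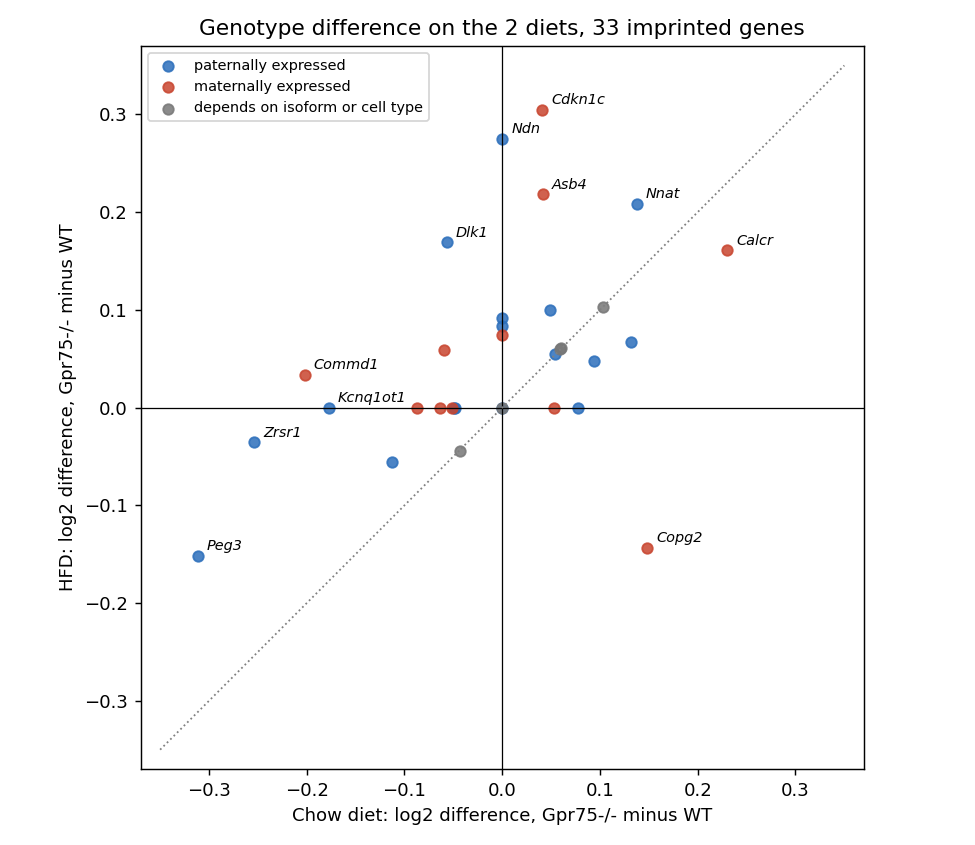
Genotype difference (log2, *Gpr75-/-* minus WT) on chow (horizontal) and on the HFD (vertical) for the 33 imprinted genes above the count minimum, colored by the expressed parental allele; the dotted line marks equal differences. *Ndn*, *Cdkn1c*, *Commd1*, *Dlk1*, *Zrsr1*, *Kcnq1ot1* and *Asb4* lie farthest above the line, *Copg2* lies far below it, and *Calcr* and *Nnat* are higher and *Peg3* lower on both diets.

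Genes that keep imprints in place were on a separate list, 13 of which were found (*Uhrf1* was not analysed here). On chow 9 of the 13 were lower in *Gpr75-/-* mice, 1 equal and 3 higher, with a median of -0.05, and 4 were lower by over 1.1-fold. These shares, 69.2% lower and 30.8% lower past 1.1-fold, stand beside 40.4% and 12.7% over all genes. The 4 were *Zfp445* (110.0 and 94.9 CPM, -0.21), a zinc finger protein gene that guards imprints, *Smchd1* (45.2 and 38.8 CPM, -0.22), which acts in silencing, *Arid4b* (110.0 and 94.9 CPM, -0.21) and *Ezh2* (7.28 and 5.68 CPM, -0.36, counting SE 0.11), the Polycomb methyltransferase. On the HFD 5 were higher, 4 equal and 4 lower, with a median of 0.00, where 46.3% of all genes were higher and 34.4% lower. *Zfp445* (88.3 and 79.4 CPM, -0.15) and *Smchd1* (36.5 and 33.4 CPM, -0.13) were again lower, and *Arid4b* differed by 0.05. *Ezh2* (6.19 and 7.02 CPM, 0.18, counting SE 0.10) and the maintenance methyltransferase gene *Dnmt1* (60.4 and 66.8 CPM, 0.15) were higher. *Trim28*, the corepressor recruited by such zinc finger proteins, was at 88.3 CPM in all 4 groups.

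Of the 11 genes whose products work with MAGEL2 in endosomal recycling, 4 were higher, 4 equal and 3 lower on chow and 4 higher, 3 equal and 4 lower on the HFD, with medians of 0.00. Over all genes kept, 43.3% were higher and 40.4% lower on chow, and 46.3% and 34.4% on the HFD. None passed 1.1-fold on chow (12.4% of all genes higher and 12.7% lower), and 1, the WASH complex gene *Washc4*, did on the HFD (69.1 and 62.4 CPM, -0.15), where 11.8% of all genes were higher and 8.99% lower. The ubiquitin ligase gene *Trim27* was at 28.2 CPM in both genotypes on chow and at 28.2 and 29.8 CPM on the HFD, and *Usp7* was at 133 CPM in all 4 groups. *Vps35*, a retromer subunit gene, was at 279 and 305 CPM on chow (0.13) and at 334 and 319 CPM on the HFD (-0.06).

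Markers of other tissues near the hypothalamus moved too. The 5 choroid plexus markers kept on chow were all above WT in *Gpr75-/-* mice, by a median of 1.21. Sums of 41.2 and 70.4 CPM also take in *Folr1* (1.08 and 2.33 CPM), which was below the minimum. The 4 others of the 10 were at the lowest recorded value of 1 CPM in WT mice. For *Ttr* the mean over the 6 chow mice, 2910 normalized counts, lay far above its group values of 5.59 and 12.9 CPM, a gap of 4.09 on the log2 scale. Whether single libraries carried the chow difference of these markers was not tested. On the HFD 2 of the 4 kept were higher and 2 lower. Sums of 37.98 and 37.03 CPM there also take in *Ttr* (3.60 and 1.35 CPM), which was below the minimum on that diet. All 5 red blood cell markers were higher on chow, with a median of 0.63, and lower on the HFD, with a median of -0.20. Markers of the meninges were higher for 5 of 6 on chow (median 0.10) and 8 of 9 on the HFD (median 0.33). Over all genes kept, 43.3% were higher and 40.4% lower on chow, and 46.3% and 34.4% on the HFD. Astrocyte medians were 0.06 and 0.00, microglia medians -0.05 and -0.05, and endothelium medians -0.09 and -0.10. Their part in the differences of the imprinted genes was not tested.

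A single library that stands apart would pull the mean count over the 6 mice above the average of the group values, which behave as averages on a log scale. For *Ttr*, a choroid plexus marker described above, that gap was 4.09 on the log2 scale on chow. Among the 33 imprinted genes it was at most 0.06 on chow and 0.03 on the HFD, both for *Cdkn1c*, the sole member of the 33 with a gap above what rounding allows. For *Ndn* on the HFD the mean lay below the average of the group values, by a gap of -0.04 where rounding allows 0.03 to either side. This is not a measure of the spread between mice, and moderate differences between them would not show.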

How the data were processed

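Hypothalamus RNA-Seq covered 12 male mice in 4 groups of 3, assigned by their labels. Per the study's methods, RNA was extracted with TRIzol, libraries were made from mRNA with a SMART-Seq kit and sequenced in read pairs, and the authors ran the Astrocyte workflow and DESeq2. The deposited results come as a table for each diet. The submitters' processing notes name STAR, featureCounts, StringTie, DESeq2 and GRCm39. Versions and the strand setting of the counting are not given in the sources used here.

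The deposited signal of a gene, made by the authors, is its count divided by size factors and averaged over 6 mice. The deposited group values are on a log2 scale with 2 decimals, taken of 1 plus log2 CPM. This scale was worked out from the values: for genes with equal group values, log2 of the deposited mean less the converted value was constant within rounding for 99.5% of genes on chow and 99.9% on the HFD. Values were converted to CPM with rounding limits of 0.005 to either side. The tables also hold the authors' own comparison (fold changes, their errors, test statistics, p-values and adjusted p-values), which was not used. With no values of single mice, no test was run, and the count test planned for such values could not be fitted.

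Genes with a mean of at least 50 normalized counts were kept. A gene was counted as past a difference at 0.32 on the log2 scale, with 1.1-fold as a second rule. The counting SE takes counts as Poisson over 3 mice a group. Levels per kb used union exon lengths of GENCODE models matched by Ensembl identifier, and promoters came from RefSeq (GRCm38.p6); the coordinates of genes are those deposited (GRCm39), and the builds are never mixed. Every member found was named, with full values for the 6 largest differences per diet and for the *Ndn* cluster. The members, lists and markers were chosen with earlier results of these data known. Alternatives were no minimum, a minimum of 500, 1.1-fold, 1.5-fold, centering on the median of all genes, means in place of medians, reassignment of genes with a dependent imprint, and 1 normalized count added to each group. Python 3.11.15, numpy 2.4.6, pandas 2.3.3 and matplotlib 3.10.9 were used.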

Additional observations from a re-analysis of the deposited data

How the results depend on the processing

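No paired analysis was possible because the deposited tables hold 1 value per group and none for single mice. For the same reason, leaving out each mouse in turn and any other count model were not run, and an effect of 1 mouse on a group value could be seen only through the deposited mean. The count of members past 0.32 on the log2 scale was 0 on each diet. It was also 0 with a 1.5-fold limit (0.506% of all genes on chow and 0.265% on the HFD). With a minimum of 500 normalized counts it was 0 as well (0.861% and 0.397% of all such genes). Because the median of all genes kept was 0 on each diet, centering also left the count at 0. Without a minimum it was 1 on chow (*Mkrn3*; 7.33% of all genes) and 1 on the HFD (*Airn*; 5.25%). At 1.1-fold it was 6 on chow (25.1% of all genes) and 8 on the HFD (20.8%), and at 1.1-fold with a minimum of 500, an alternative chosen after seeing the data, 3 (13.7% of all such genes) and 7 (9.68%). The median of maternally expressed members on chow was -0.0516 with a minimum of 500, which left 7 genes, against 0.00. The other 41 alternative values for lists and 132 for single members moved by less than their rounding limits or kept the same count, and none reversed. Depth limits *Cdkn1c*, *Mkrn3* and *Airn*. For the abundant members, rounding is coarser than counting error.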
